A study of Caenorhabditis elegans with 2 samples.

Results

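The 9 genes described here encode components of the P granules of Caenorhabditis elegans and were chosen by name from the Ensembl annotation of the WBcel235 genome. They are pgl-1, pgl-3, glh-1, glh-2, glh-3, glh-4, deps-1, meg-1 and meg-2, and all 9 were found among the 19973 protein-coding genes of the nuclear chromosomes. P granules are condensates of RNA and protein that lie on the outer face of germ cell nuclei, take part in mRNA and small RNA regulation, and pass to the germ line founder cells of the embryo. The PGL proteins form their scaffold, the GLH proteins are DEAD-box RNA helicases related to Vasa, DEPS-1 promotes granule assembly, and the MEG proteins act in embryonic granules.

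The binding of LIN-38 was mapped by chromatin immunoprecipitation followed by sequencing (ChIP-seq). The lin-38 gene is in class A of the synthetic multivulva (synMuv) genes, which act redundantly with class B in vulval development. Mutants of several synMuv B genes express germ line genes, P granule components among them, in somatic cells. This is the background against which the occupancy of these genes is of interest.

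There was 1 group, of 2 biological replicates of strain RW12236. In this strain a CRISPR insertion at the endogenous lin-38 locus on chromosome II carries the allele st12236[lin-38::TY1::EGFP::3xFLAG], so that LIN-38 was made as an EGFP fusion. Whole L4 larvae, the last larval stage, were collected at 48 hours after synchronisation by starvation of hatchlings from bleached adults, and the fusion protein was recovered with an antibody against GFP from sonicated chromatin. No untagged or mutant group was analysed here, so the lists show where LIN-38-EGFP was recovered and not what its loss does. Whole larvae hold germ line and somatic cells, and a peak in few cells and weak binding in many cannot be told apart. Peak positions carry no expression values, so the cell types in the sample could not be checked against markers.

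Each deposited peak has a summit and a signal value, the authors' own score of its height, whose scaling is not stated. It was used only to rank and describe peaks. In the conservative list, made from both samples, there were 5405 nuclear peaks at an irreproducible discovery rate (IDR) of 0.01 or less, where a low IDR means that a peak ranked alike in the inputs compared. The other thresholded list of the series held 5551, replicate 1's own list 4429 and replicate 2's own list 4474. The ranked list that held the conservative peaks had 56082 nuclear entries, called candidates below, most of which did not pass the threshold. It is meant by the ranked list of the series unless the other such list, with 56288 nuclear entries, is named. Depth is unknown because the lists carry no read counts, and 1 group of 2 replicates allows no test between samples.

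LIN-38 summits lay in the promoter windows of 5 of the 9 P granule genes, glh-1, glh-2, glh-4, deps-1 and pgl-3, and of none of pgl-1, glh-3, meg-1 and meg-2. A promoter window began 500 bp before and ended 200 bp after an annotated 5′ end of a protein-coding transcript. Of all protein-coding genes 14.6% had such a peak. In the other thresholded list 4 of the 9 had one, without pgl-3, beside 14.7% of all genes. Replicate 1's own list gave 2 of the 9, glh-2 and deps-1, where 13.2% of all genes had a promoter peak. Replicate 2's own list gave 4 of the 9, glh-1, glh-2, deps-1 and pgl-3, where the share was 13.1%. The number of P granule genes bound at the promoter therefore rested on the list used, and glh-2 and deps-1 were in all 4 lists. The peaks were of low to middling height: the median signal value of the 5 was 193, against 336 over the tallest promoter peak of each of the 2910 genes with one.

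**Figure D1:**
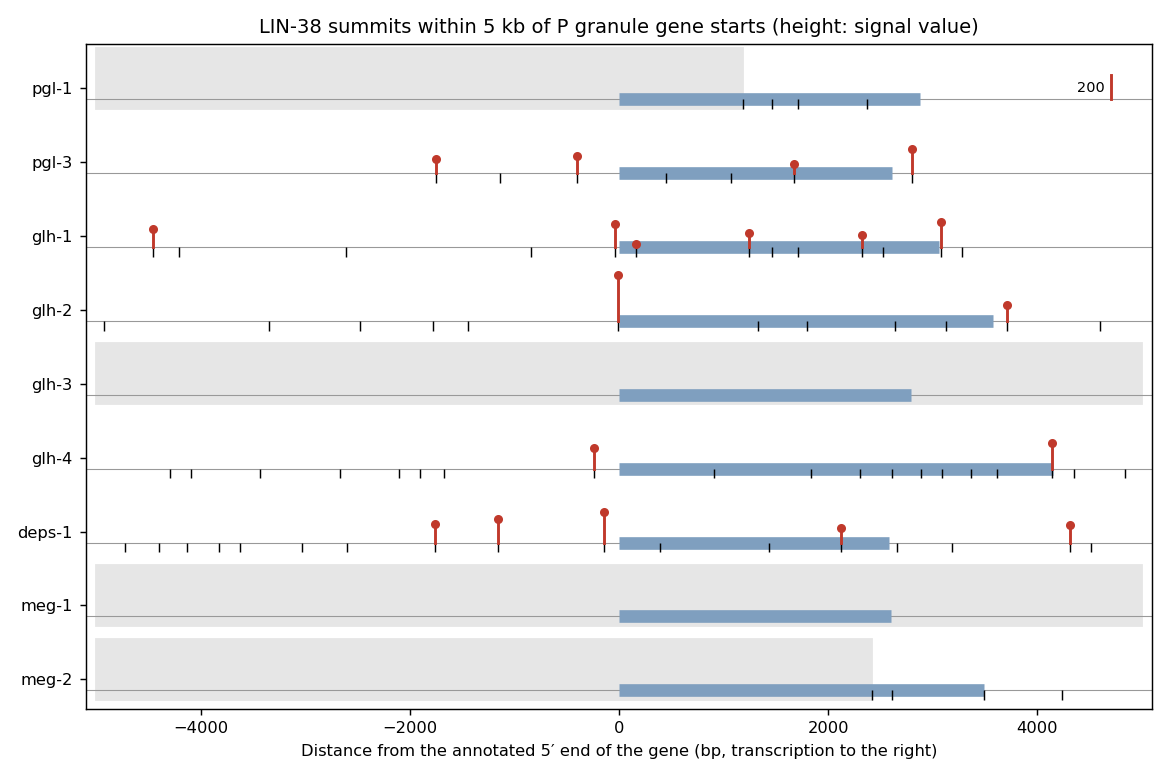
LIN-38 summits around the 9 genes. The x axis is the distance in bp from the most upstream annotated 5′ end, blue bars are the gene spans, red stems are conservative summits with the signal value as height (scale bar 200), black ticks are candidates of the ranked list, and grey marks stretches of 10 kb or more without a candidate. The 5 genes with a promoter peak also have a summit in or past the gene, and the starts of pgl-1, glh-3, meg-1 and meg-2 lie in grey. Distances in the text are from the nearest annotated 5′ end, so some in pgl-1, pgl-3 and deps-1 differ from the plot.

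The PGL proteins bind RNA and associate with themselves to form the body of the granule, and their genes differed in the conservative list. Of the pair, pgl-3 had a promoter peak there and pgl-1 had none. The pgl-3 gene (V:4755979-4758587, plus strand) had a summit 398 bp upstream of its start, between genes and 128 bp past the 3′ end of hil-4, a linker histone H1 gene on the same strand. The signal value there was 69.1 in replicate 1 and 82.6 in replicate 2, a mean of 75.8 ± 9.53 (SD, n = 2). In the conservative list the peak had the value 140, rank 3834 of 5405, and a −log10 IDR of 3.07. It was in replicate 2's own list and not in replicate 1's, where its candidate had a −log10 IDR of 0.56.

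A taller summit lay past the other end of pgl-3, 196 bp downstream of the 3′ end, with 88.6 in replicate 1, 117 in replicate 2 and 203 in the conservative list. It too was in replicate 2's own list only. Another summit, in a coding exon 1664 bp from the start, had 50.4 and 50.0 in the replicates, 78.7 in the conservative list, and was in neither own list. The remaining peak within 5 kb of pgl-3 lay 1750 bp upstream at the promoter of hil-4 (121 in the conservative list), in replicate 1's own list only. The bases at both intergenic pgl-3 summits, and those upstream of and past pgl-1, show the regions compared. They are read 5′ to 3′ on the coding strand of each gene from the RefSeq WBcel235 genome and stop where a neighbouring gene begins. Capitals mark matches, on either strand, to the 10 short patterns described with the base composition further on.
pgl-3 promoter summit, V:4755454-4755730, plus strand: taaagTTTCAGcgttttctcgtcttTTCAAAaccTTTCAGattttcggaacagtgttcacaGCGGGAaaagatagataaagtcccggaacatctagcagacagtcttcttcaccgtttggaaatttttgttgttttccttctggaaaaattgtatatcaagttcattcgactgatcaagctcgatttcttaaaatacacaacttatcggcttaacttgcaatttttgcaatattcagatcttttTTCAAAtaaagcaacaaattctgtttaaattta
pgl-3 summit past the 3′ end, V:4758633-4758932, plus strand: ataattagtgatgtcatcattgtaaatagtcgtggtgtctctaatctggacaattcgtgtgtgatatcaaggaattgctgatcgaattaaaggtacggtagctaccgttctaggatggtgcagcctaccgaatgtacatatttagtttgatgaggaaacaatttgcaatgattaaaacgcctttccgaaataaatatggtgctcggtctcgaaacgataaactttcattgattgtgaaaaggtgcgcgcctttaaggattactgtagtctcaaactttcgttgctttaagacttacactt
pgl-1 upstream of the gene, IV:6977319-6977507, minus strand: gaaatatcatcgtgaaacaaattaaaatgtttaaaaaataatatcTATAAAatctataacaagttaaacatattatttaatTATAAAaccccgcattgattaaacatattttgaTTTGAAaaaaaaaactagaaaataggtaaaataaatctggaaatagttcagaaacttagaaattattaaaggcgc
pgl-1 replicate 2 summit past the 3′ end, IV:6974179-6974440, minus strand: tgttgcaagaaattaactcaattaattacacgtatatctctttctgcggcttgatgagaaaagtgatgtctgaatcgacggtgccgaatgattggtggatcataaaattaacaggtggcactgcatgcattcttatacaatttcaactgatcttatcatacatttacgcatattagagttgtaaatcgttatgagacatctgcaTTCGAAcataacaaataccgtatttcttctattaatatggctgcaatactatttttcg
The pgl-3 promoter sequence holds TTTGAA at 2 places, TTTCAG at 2 and TCCCGC at 1, and that past its 3′ end holds none of the patterns. The interval between pgl-1 and its divergent neighbour is only 189 bp long, with a GC content of 20.6%, and the same measure at the pgl-3 promoter summit was 33.2%.

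The pgl-1 gene (IV:6974441-6977318, minus strand) shares its upstream interval with him-3, which encodes a protein of the meiotic chromosome axis. Neither the conservative list nor any ranked list had a summit in the pgl-1 promoter window. In the ranked list of the series 4 candidates lay inside the gene, at 1011, 1288, 1532 and 2192 bp from the nearest start, with signal values of 58.7, 40.3, 103 and 76.2. None reached a −log10 IDR of 2 in that list, the highest being 0.858. Replicate 2's own list did hold a peak inside the gene, in a coding exon at 2193 bp. Its value there was 58.3, with a −log10 IDR of 2.54. The replicate 1 candidate nearest to it, at 2090 bp, had 25.1 and a −log10 IDR of 0.22. The nearest conservative peak was 35611 bp away, at the promoter of trxr-1, a thioredoxin reductase gene, with the value 210.

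The replicates also parted at the 3′ end of pgl-1. Replicate 2 had a peak of 185 with its summit 112 bp past the end of the gene, a −log10 IDR of 4.51 and rank 1655 of 4474 in its own list. Replicate 1 had no candidate within 200 bp of that end, and neither had either ranked list of the series. The replicate 2 value exceeded those of the same replicate at the 3′ ends of pgl-3, glh-1, glh-2, glh-4, glh-3 and deps-1. With no read counts, whether replicate 1 lacked reads there was not tested.

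The 4 GLH helicases also divided, with promoter peaks at glh-1, glh-2 and glh-4 and none at glh-3. All 4 genes lie on chromosome I. The glh-2 peak was the tallest of the P granule genes and the closest to a start, 10 bp upstream of the gene (6513928 to 6517507, plus strand). It had 196 in replicate 1 and 194 in replicate 2, a mean of 195 ± 1.61 (SD, n = 2). In the conservative list the value was 381, rank 1591 of 5405, with a −log10 IDR of 4.88, and the peak was in both own lists. The summit also lay 88 bp upstream of C55B7.11, which starts on the opposite strand 97 bp away, so the lists do not say which of the 2 genes the summit belongs to.

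The glh-1 gene (6854478 to 6857536, plus strand), whose product is the main constitutive GLH helicase, carried the most summits along its length, 5. Of these, 2 belong to overlapping peaks at the promoter and are not separate sites. The promoter summit lay 38 bp upstream, with 87.3 in replicate 1 and 106 in replicate 2, a mean of 96.5 ± 13.0 (SD, n = 2), and 193 in the conservative list. It was in replicate 2's own list, and in replicate 1 it had a −log10 IDR of 0.143. An overlapping conservative peak with a summit 163 bp downstream, in the 5′ untranslated region, had a value of 28.5 and met the same replicate peaks, so the pair is counted as 1 gene with a promoter peak.

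Inside glh-1 a summit in a coding exon at 1244 bp had 57.9 and 55.8 in the replicates and 118 in the conservative list. It was in replicate 1's own list only. Another, in an intron at 2324 bp, had 60.5, 49.8 and 100, and was in neither own list. The highest value of the gene was at its other end, 25 bp past the 3′ end, with 122 in replicate 1, 100 in replicate 2 and 207 in the conservative list, and this was the 1 summit along glh-1 found in both own lists. A further peak lay 4451 bp upstream at rpb-5, an RNA polymerase subunit gene, with 71.7, 90.8 and 154.

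The glh-4 gene (3727027 to 3731179, plus strand) had a promoter summit 235 bp upstream, in a peak only 102 bp wide. Replicate 1 had 93.9 and replicate 2 had 75.9, a mean of 84.9 ± 12.7 (SD, n = 2), and the conservative value was 176. It was in neither own list, although replicate 1 came close, with a −log10 IDR of 1.99. The summit at the other end had a higher value in both replicates. It lay in the 3′ untranslated region 15 bp before the end of the gene, with 126 and 132 in the replicates and 217 in the conservative list, and was in both own lists. The same summit is 188 bp upstream of T12F5.2, the next gene on that strand, and falls in its promoter window.

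The summit past glh-2 was weaker, with 82.3 in replicate 1 and 61.1 in replicate 2, and 135 in the conservative list. It lay 133 bp past the end of glh-2 in a coding exon of che-1, a zinc finger transcription factor gene of gustatory neurons on the opposite strand, whose own 3′ end is 111 bp away. It was in replicate 1's own list only.

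The glh-3 gene (5792321 to 5795114, minus strand) had no conservative peak within 5 kb, and the nearest was 8667 bp away at mtk-1 with the value 174. Replicate 1 and the ranked list that held the conservative peaks had no candidate within 5 kb either, while the other ranked list of the series had 8, of which 1 lay in the promoter window. Replicate 2 had a candidate of 46.6 at 136 bp upstream, with a −log10 IDR of 1.22, and a peak of 70.9 in its own list at 97 bp past the 3′ end. In the other thresholded list this last site had the value 146. It lies in the promoter window of cpb-3, which encodes an RNA-binding protein of the CPEB family.

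The deps-1 gene (506473 to 509056, plus strand, chromosome I), which is needed for normal PGL and GLH granules, had the next tallest promoter peak after glh-2. Its summit lay 140 bp upstream, with 119 in replicate 1 and 147 in replicate 2, a mean of 133 ± 19.6 (SD, n = 2). The conservative value was 259, rank 2256, with a −log10 IDR of 4.11, and both own lists had it. The divergent neighbour Y65B4BL.4 starts closer to this summit, at 83 bp, and shares the peak. A summit in a coding exon of deps-1, at 1932 bp, had 54.2, 83.9 and 118, and was in replicate 2's own list only.

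Around deps-1 peaks were dense. Introns of Y65B4BL.4 held summits at 1158 and 1755 bp upstream of deps-1, with conservative values of 194 and 153. A coding exon of Y65B4BL.7, which overlaps the end of deps-1 by 109 bp on the opposite strand, held one of 149 at 4120 bp. The peak at 1158 bp was in replicate 2's own list only, that at 1755 bp in replicate 1's only, and that at 4120 bp in neither. A site 72 bp past the 3′ end of deps-1 was in both own lists, with 49.8 and 102, and in the other thresholded list with 140. It was not in the conservative list, where its candidate had a −log10 IDR of 1.84.

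The MEG proteins are intrinsically disordered proteins of the embryo's P granules, and their genes lie next to each other on the X chromosome, 906 bp apart on the same strand. The meg-1 gene (13927036 to 13929634, minus strand) had no peak and no candidate within 5 kb of its start in any of the 8 lists. Its nearest candidate was 5919 bp away in the ranked list of the series, 5927 bp in replicate 1 and 5915 bp in replicate 2. The meg-2 gene (13922643 to 13926129, minus strand) had 4 candidates, none in its promoter window. The highest, in a coding exon at 2614 bp, had 42.7 in replicate 1, 61.0 in replicate 2 and 99.0 in the ranked list, with a −log10 IDR there of 1.62. It is in the other thresholded list and not in the conservative one. The nearest conservative peak to meg-1 was 17376 bp away, the same peak was 20881 bp from meg-2, and its value was 108.

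The 4 genes without a promoter peak had no promoter candidate in the ranked list that held the conservative peaks either. In the other ranked list of the series glh-3 had 1, and pgl-1, meg-1 and meg-2 had none. In the ranked list that held the conservative peaks 34.8% of all genes had a promoter candidate, and of the P granule genes 5 of 9. Those 5 all had a conservative peak, where 41.9% of all genes with a candidate had one. Within 5 kb of a start, 5 of 9 had a conservative peak, beside 36.5% of all genes. Within the same distance 7 of 9 had a candidate, the additional genes being pgl-1 and meg-2, beside 55.6% of all genes.

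Candidates were unevenly spread over the genome, and stretches of 10 kb or more without a single candidate covered 62.2% of it. The starts of pgl-1, glh-3, meg-1 and meg-2 all lay in such stretches without a promoter candidate, 4 of 9, as did 60.1% of all genes. The stretch at pgl-1 was 36797 bp long, that at glh-3 28384 bp, and meg-1 and meg-2 shared one of 14544 bp. The glh-3 stretch was also present in replicate 1's ranked list, and not in replicate 2's or in the other ranked list of the series. What leaves these stretches without candidates was not tested.

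The share of genes with a promoter peak differed between chromosomes, from 24.8% on chromosome I and 23.0% on III to 8.77% on V and 5.42% on X. Of the 5 P granule genes on chromosome I, 4 had one. Of those elsewhere, pgl-3 on V had one and pgl-1 on IV, meg-1 and meg-2 did not. How far the chromosome accounts for the count over the 9 genes was not tested.

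**Figure D2:**
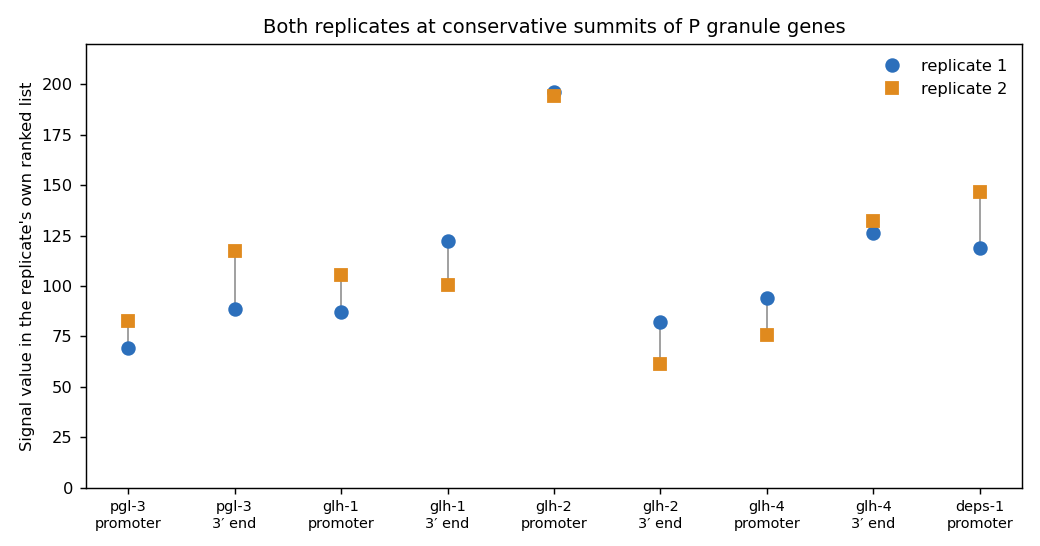
Signal values of both replicates at the promoter and 3′-end summits of the 5 genes with a promoter peak. The y axis is the authors' signal value in each replicate's ranked list, circles are replicate 1 and squares replicate 2, and lines join the values of a summit. The glh-2 promoter stands highest, at 196 and 194, and the 3′-end values of pgl-3, glh-1 and glh-4 lie above their promoter values in replicate 1, and in replicate 2 for pgl-3 and glh-4.

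Summits at the 3′ ends recurred among the P granule genes. This was noticed after their values were seen, and no test bears on it. Within 200 bp of the 3′ end of the gene, 4 of the 9 had a conservative summit, pgl-3, glh-1, glh-2 and glh-4, and the share over all genes was 6.10%. All 4 also had a promoter peak, so 4 of the 5 genes with a promoter peak had a summit at the other end, where 21.6% of all genes with a promoter peak did. Without summits in a promoter window of any gene, which takes out glh-4, 3 of 9 were left, beside 3.43% of all genes. Of the 27 other germ granule genes described further on, 9 had a conservative summit within 200 bp of the 3′ end, so the trait was not particular to the 9.

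The lists differed in which genes had such a summit. In the other thresholded list there were 6 of 9, glh-3 and deps-1 being added, beside 6.32% of all genes. Replicate 1's own list had 4, glh-1, glh-2, glh-4 and deps-1, beside 4.75%. Replicate 2's own list had 6, pgl-1, pgl-3, glh-1, glh-3, glh-4 and deps-1, beside 4.92%. The 3 genes in both own lists were glh-1, glh-4 and deps-1.

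Several summits along a gene were also common. From 500 bp upstream to 200 bp past the 3′ end, 2 or more conservative summits lay at 5 of the 9 genes, and at 6.21% of all genes. They were the 5 genes with a promoter peak, and 34.7% of all genes with a promoter peak had as many. This stretch takes in the promoter and the 3′ end, so the count overlaps with those above and is no separate trait. At glh-2 and glh-4 the 2 summits were the promoter and 3′-end summits already described. Longer genes have more room for summits. Among genes with a promoter peak whose span was in the members' range, 2584 to 4153 bp, 36.8% had 2 or more, and the 5 of 5 stands beside that share. Of the 27 other germ granule genes, 11 had 2 or more conservative summits along the gene. These counts too were taken after the values were seen.

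The replicate values at the 5 promoter peaks were close. The log2 ratio of replicate 1 over replicate 2 was 0.02 at glh-2, 0.31 at glh-4, −0.26 at pgl-3, −0.28 at glh-1 and −0.30 at deps-1. Across the 3840 conservative peaks with a signal value under 400 and a value in both replicates the SD of this ratio was 0.46 around a median of 0.00, so all 5 lay within 1 SD. The conservative list keeps peaks that ranked alike in the inputs compared. Closeness was therefore partly built into the choice of these peaks and is no separate evidence that they reproduce. The own lists nevertheless differed at pgl-3 and glh-1, which only replicate 2's list held, and the glh-4 peak was in neither.

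**Figure D3:**
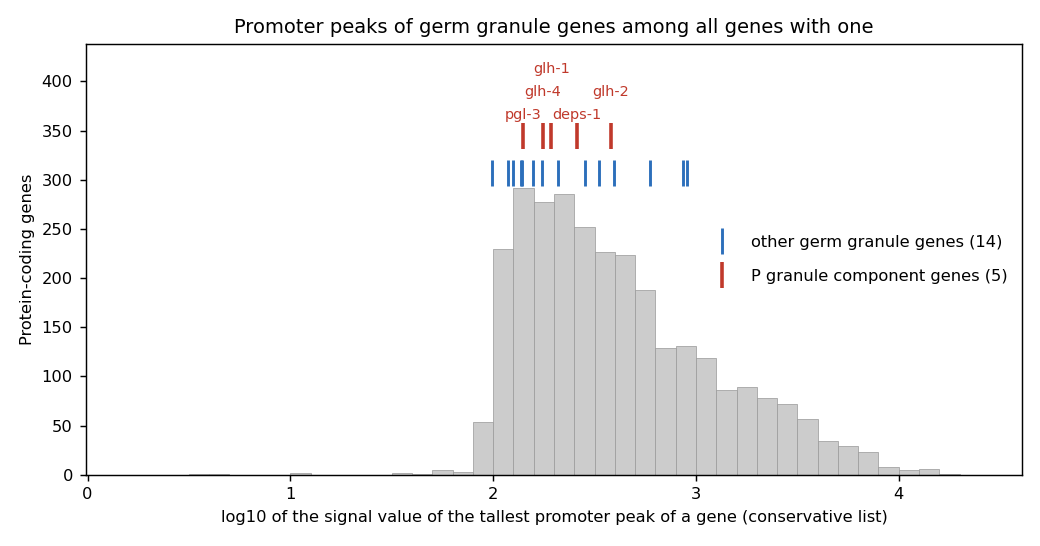
Height of promoter peaks. The x axis is the log10 of the signal value of the tallest promoter peak of a gene in the conservative list, and grey bars count the 2910 protein-coding genes with one. Red ticks are the 5 P granule genes, from 140 at pgl-3 to 381 at glh-2, and blue ticks the 14 other germ granule genes with one, from 99.2 to 902.

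Among the 2910 genes with a promoter peak, 54.5% had a lower one than glh-2, 41.1% than deps-1, 28.8% than glh-1, 25.3% than glh-4 and 14.8% than pgl-3. A summit shared with a divergent gene was seen at glh-2 and deps-1, 2 of the 5 genes. Of all 2531 conservative promoter peaks, 22.3% lay in the windows of 2 or more genes. That is a share of peaks and not of genes, so the 2 of 5 cannot be set against it.

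A further list of 27 genes of germ granules was set beside the 9, and 14 of them (51.9%) had a conservative promoter peak, beside 14.6% of all genes. This list was drawn up with earlier results of these data known. Most of the 14 lie on chromosome I, where 24.8% of all genes had a promoter peak. How far the chromosome accounts for their count was not tested. Their median signal value was 192, close to the 193 of the P granule genes, and the range was wider. Of the 14, 5 were in both own lists, so that 5 of the 27 genes had such a peak, beside 11.5% of all genes, and 3 were in neither. Shared summits were found at 4.

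The small RNA factors had 9 of 11, beside 14.6% of all genes. Of these 9 peaks, 3 were in both own lists and 2 in neither. The tallest were at simr-1 (902, shared with C06A5.3), which acts in small RNA amplification, and at mut-16 (859), the scaffold of Mutator foci. Their summits lay 500 and 493 bp upstream, at the far edge of the promoter window. The Tudor protein gene ekl-1 had 394 at 467 bp upstream, shared with prpf-4. The RNA-dependent RNA polymerase gene ego-1 had 283 at 405 bp upstream. The Argonaute genes wago-4 (210, shared with F58G1.2), csr-1 (138) and wago-1 (99.2) were lower, as were the helicase genes znfx-1 (158) and drh-3 (119). The values of wago-1, drh-3 and csr-1 were below that of pgl-3, the lowest of the P granule genes, and those of simr-1, mut-16 and ekl-1 were above that of glh-2.

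Scaffolds and regulators of granules, the group nearest in role to the PGL and MEG proteins, had 2 of 9, beside 14.6% of all genes. These were vbh-1 (591, shared with mrpl-17), a DEAD-box helicase gene related to Vasa, and mip-1 (126), a LOTUS domain gene. As with meg-1 and meg-2, meg-3 and meg-4 on the X chromosome had neither a peak nor a candidate in the promoter window, and pgl-2 had a candidate and no peak. The mRNA and translation factors had 3 of 5, car-1 (331), gld-2 (174) and gls-1 (137), beside the same 14.6%. The autophagy genes sepa-1 and epg-2, whose products clear P granule proteins from somatic cells of the embryo, had none.

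**Figure D4:**
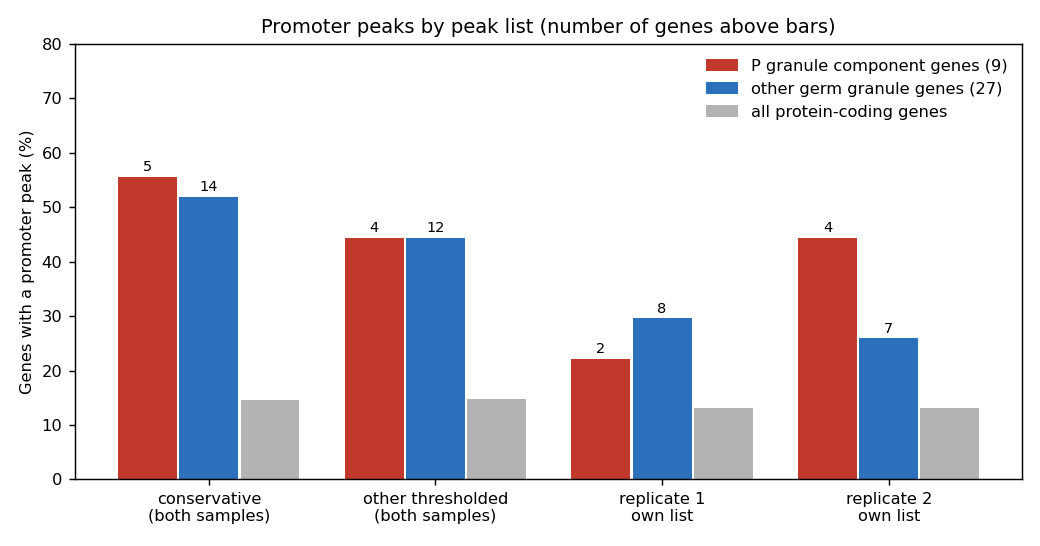
Share of genes with a promoter peak in 4 peak lists. The y axis is the percentage of genes, red bars are the 9 P granule genes, blue bars the 27 other germ granule genes and grey bars all 19973 protein-coding genes, with the number of genes above the red and blue bars. In replicate 1's own list 2 of the 9 and 8 of the 27 have one, the lowest share of the P granule genes among the 4 lists.

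The sequences at the summits were searched for 10 short patterns on both strands in 300 bp centred on each summit. TTCGAA, a form of the cell cycle gene homology region bound by DREAM complexes, was present at 4 of the 5 promoter summits (glh-1, glh-2, glh-4 and deps-1). It was at 23.8% of the 2531 conservative promoter summits and 21.4% of all 5405 summits. Pairs of shares below are given in that order. The form TTTGAA was at 3 of 5 (pgl-3, glh-2 and glh-4), beside 58.6% and 55.8%. Of the E2F-type patterns, TCCCGC was at pgl-3 and glh-2 (12.5% and 12.1%) and TGGCGC at glh-4 (14.8% and 12.9%).

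TTTCAG was at 4 of 5 (pgl-3, glh-2, glh-4 and deps-1), beside 46.0% of promoter summits and 40.7% of all. TATAAA was at glh-2 and glh-4 (31.4% and 29.6%). None of the 5 held CACGTG (5.73% and 6.44%), TGACTCA (2.57% and 2.46%), GAGAGA (28.1% and 29.0%) or CTGCGTC (11.6% and 10.8%). In the 300 bp upstream of the 4 genes without a promoter peak TTTGAA was found at 3, pgl-1, glh-3 and meg-2, and TTCGAA at none. Over all genes TTTGAA is found in 64.5% of such upstream windows and TTCGAA in 18.0%. A match is a description of letters and not a binding site, and with 5 and 4 sequences these counts have little precision. The GC content of the 300 bp was 46.0% at glh-1, 39.7% at glh-2, 34.3% at deps-1, 33.3% at pgl-3 and 29.0% at glh-4, around a median of 36.0% over all promoter summits.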

How the data were processed

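ChIP-seq peak lists of LIN-38-EGFP from 2 biological replicates were used. The 8 deposited lists are on the ce11 assembly (WBcel235), per the labels. Each replicate came with a ranked and a thresholded list from its own reads, and 2 ranked lists, a conservative and another thresholded list combine both. Which aligner and peak caller were used is not given in the sources used here. The deposited signal value is the authors' height score per peak, with no stated scaling. The deposited score is a scaled IDR, at least 830 in every thresholded list. The authors' ranked lists also give the −log10 of the global IDR. Control libraries and alignments were not analysed here, and 0 columns of other samples were set aside. Mitochondrial peaks were left out.

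Genes and 29314 5′ ends of protein-coding transcripts came from Ensembl release 115. A summit counted for every gene whose window held it. Replicate values come from the overlapping peak (at least 1 bp) with the nearest summit in each replicate's ranked list. At conservative peaks the signal value was close to the sum of both replicates' values (median ratio 1.00). The width was 376 bp in 49.3% of conservative peaks. Window assignment was tested on simulated data. All 9 members are named, with every gene that shares a promoter summit with them or whose window holds a peak within 5 kb, the genes nearest to a member's end or to an absent peak, and of the other germ granule genes those with a promoter peak. The genes meg-3, meg-4, pgl-2, sepa-1 and epg-2 were named after their values were seen. The members and lists were chosen with earlier results of these data known. No list test was run. Python 3.11.15, pandas 2.3.3, NumPy 2.4.6 and matplotlib 3.10.9 were used. Alternatives changed the window, list, signal minimum, gene assignment, overlap and replicates.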

Additional observations from a re-analysis of the deposited data

How the results depend on the processing

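The 5 P granule genes with a promoter peak were 3 with a window of 200 bp upstream to 100 bp downstream (glh-1, glh-2 and deps-1), 2 with peaks at or above the median signal value and 2 with peaks in both own lists (glh-2 and deps-1 each time). Over all genes the share with a promoter peak was 8.04%, 9.86% and 11.5% under these 3 alternatives, from 14.6%. With 1 replicate left out the count was 2 to 4, beside 13.1% to 13.2% of all genes. The 14 other germ granule genes became 4 (wago-4, drh-3, gld-2 and gls-1), 6 and 5 under the same 3 alternatives. They were 22 in the ranked list, beside 34.8% of all genes. With a replicate left out they were 7 to 8, beside 13.1% to 13.2% of all genes. The 5 genes with a peak within 5 kb were 3 with peaks at or above the median signal value (26.1% of all genes). They were 7 without replicate 1, beside 33.8% of all genes, and 5 without replicate 2, beside 34.1%. Of the results added after the data were seen, the 4 genes with a 3′-end summit were 2 within 100 bp (glh-1 and glh-4, beside 2.32% of all genes) and 4 to 6 with a replicate left out. The 5 with 2 or more summits along the gene were 4 without replicate 1, and not all the same genes (pgl-1, pgl-3, glh-1 and deps-1, beside 4.73% of all genes). Without replicate 2 there were 3 (glh-1, glh-2 and deps-1, beside 4.46%). The cause of these shifts was not tested. Under the other alternatives counts stayed within 1.5 times the main count. Among these, counting a summit only for the nearest 5′ end left 4 P granule genes, without deps-1. It left 11 other germ granule genes, without vbh-1, ekl-1 and simr-1. Over all genes the share was then 11.8%. Replicate ratios of the 5 promoter peaks did not move. The 4 genes with a promoter peak in the other thresholded list had the identical signal value there, so that comparison says little about stability. The pgl-3 peak has no counterpart in the other thresholded list and so no value there. No paired analysis was possible because there was 1 group. Unknown depth limits what an absent candidate can show.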
